A study of Mus musculus with 6 samples.

Results

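The genes described here encode enzymes that remove superoxide and peroxides: the superoxide dismutase genes Sod1, Sod2 and Sod3, the catalase gene Cat, the glutathione peroxidase genes Gpx1, Gpx3, Gpx4, Gpx7 and Gpx8, and the peroxiredoxin gene Prdx6. They were chosen by gene name, 10 of 54433 genes in a table of RNA sequencing counts, and 9 of the 10 had enough counts to be tested. The 6 libraries came from MC3T3-E1, an osteoblast-like mouse cell line, grown in Dulbecco's modified Eagle medium with 10% fetal bovine serum and antibiotics. The 3 WT libraries came from wild-type cells, labelled control for treatment. The 3 FR libraries were cells resistant to 30 ppm fluoride that the labels describe as exposed to a gradient of 30 ppm. They had been adapted in steps of a 10 ppm fluoride gradient, and proliferation was followed until its rate was normal. Resistance, current exposure and time in culture were therefore not separated between the groups. The labels speak of clones without saying whether the FR libraries came from 1 clone or several, or whether replicate libraries stem from separate cultures, so the p-values measure only how these samples vary, which may be technical variation.

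Superoxide is made by the respiratory chain and by oxidases. Superoxide dismutases turn it into hydrogen peroxide, and each of the 3 enzymes works in another place: Sod1 mainly in the cytosol with copper and zinc, Sod2 in the mitochondrial matrix with manganese, and Sod3 outside the cell with copper and zinc. Catalase breaks down hydrogen peroxide in peroxisomes, while glutathione peroxidases and peroxiredoxins reduce peroxides with electrons from glutathione or thioredoxin. In bone, hydrogen peroxide and superoxide are known to affect both bone-forming and bone-resorbing cells, and fluoride has long been studied as a source of oxidative stress.

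The glutathione peroxidases differ in the residue that attacks the peroxide. In Gpx1, Gpx3 and Gpx4 this is selenocysteine, which is encoded by the codon TGA and needs a special insertion machinery, while Gpx7 and Gpx8 of the endoplasmic reticulum have cysteine. The 39 coding bases around this codon are shown for the 5 genes, 5′ to 3′ on the coding strand with the codon in capitals, because this codon tells the selenium-dependent members from the others. They come from the GENCODE M21 transcripts of the build GRCm38, and each lies within a single exon.
Gpx1: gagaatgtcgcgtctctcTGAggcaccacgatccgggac
Gpx3: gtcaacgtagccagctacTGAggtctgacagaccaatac
Gpx4: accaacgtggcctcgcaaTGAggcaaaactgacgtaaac
Gpx7: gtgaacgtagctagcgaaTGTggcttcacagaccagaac
Gpx8: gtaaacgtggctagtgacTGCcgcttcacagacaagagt
The stretches lie at chr9:108339433-108339471 (plus strand, exon 1 of Gpx1), chr11:54907238-54907276 (plus strand, exon 2 of Gpx3), chr10:80054719-80054757 (plus strand, exon 3 of Gpx4), chr4:108403412-108403450 (minus strand, exon 2 of Gpx7) and chr13:113045643-113045681 (minus strand, exon 2 of Gpx8). In Gpx1, Gpx3 and Gpx4 the TGA was the 1 in-frame TGA of the reading frame before its end, at codons 47, 73 and 73, and the annotation marks it as selenocysteine. Gpx7 has TGT at codon 56 and Gpx8 has TGC at codon 79. Of the 10 pairs of stretches, Gpx7 and Gpx8 shared the most bases, 30 of 39, followed by Gpx3 and Gpx7 with 29. Gpx1 shared 21 with Gpx4 and 21 with Gpx7, so the bases around the codon did not divide the 5 genes as the codon does.

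The libraries held 19246119 to 27140662 expected counts. Levels are given as CPM, counts scaled to the size of each library, in which 3 counts were worth 0.110 to 0.156, a limit that covers counting error only. The 10 osteoblast lineage genes summed to 16276 to 16560 CPM in WT and 4171 to 4217 CPM in FR, most of it from the collagen genes Col1a1 and Col1a2 and from Spp1, which other cell types also express. The more specific osteoblast genes were at or near 0 in both groups: Ibsp was at 0 in every library, and Sp7, Alpl and Bglap had means of 0.203, 0.0381 and 0.0390 CPM in WT and 0.0266, 0.0133 and 0.0261 CPM in FR. Runx2, the early transcription factor of the lineage, was at 69.8 ± 1.10 CPM in WT and 57.2 ± 0.689 CPM in FR (SD, n = 3 per group). Cdh11 and Postn, also on this list, were far lower in FR. Cdh11 was at 400 ± 6.97 CPM in WT and 13.5 ± 0.704 CPM in FR (SD, n = 3 per group). Postn was at 222 ± 11.7 CPM in WT and 1.19 ± 0.361 CPM in FR (SD, n = 3 per group). The defining genes of other cell types were at or near 0: the 4 endothelial genes summed to at most 1.13 CPM in any library, the 5 epithelial genes to at most 1.01 CPM and the 5 adipocyte genes to at most 1.65 CPM. The 6 blood cell genes summed to 6.57 to 8.01 CPM in WT and 10.3 to 12.2 CPM in FR, while Ptprc, the common leukocyte marker, had a mean of 0.0388 CPM in WT and 0.174 CPM in FR. Csf1r, a macrophage growth factor receptor, rose from 0.596 ± 0.204 to 7.13 ± 0.645 CPM and Lyz2, a lysozyme of macrophages, fell from 6.15 ± 0.535 to 1.54 ± 0.196 CPM (SD, n = 3 per group). The part of these lists in the results was not tested.

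Comparing FR with WT asked how transcripts of the antioxidant enzymes differ once cells have become resistant to fluoride. Neither the superoxide dismutases nor the glutathione peroxidases moved as a block. Gpx4, Prdx6 and Sod2 rose, Sod3, Gpx1, Gpx7 and Cat fell, and Sod1 and Gpx8 did not pass the test. With edgeR's quasi-likelihood test at an adjusted p under 0.05, 7 of 9 tested genes (77.8%) were called, while 70.1% of all 14889 tested genes were called, so this share is near the background. Of the 9 genes 3 were higher (33.3%; 34.6% of all genes) and 4 lower (44.4%; 35.5% of all genes). The median log2 fold change was −0.070 over the 9 genes and 0.0029 over all tested genes. In bulk RNA, fewer cells that express a gene and less RNA per cell cannot be told apart.

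**Figure D1:**
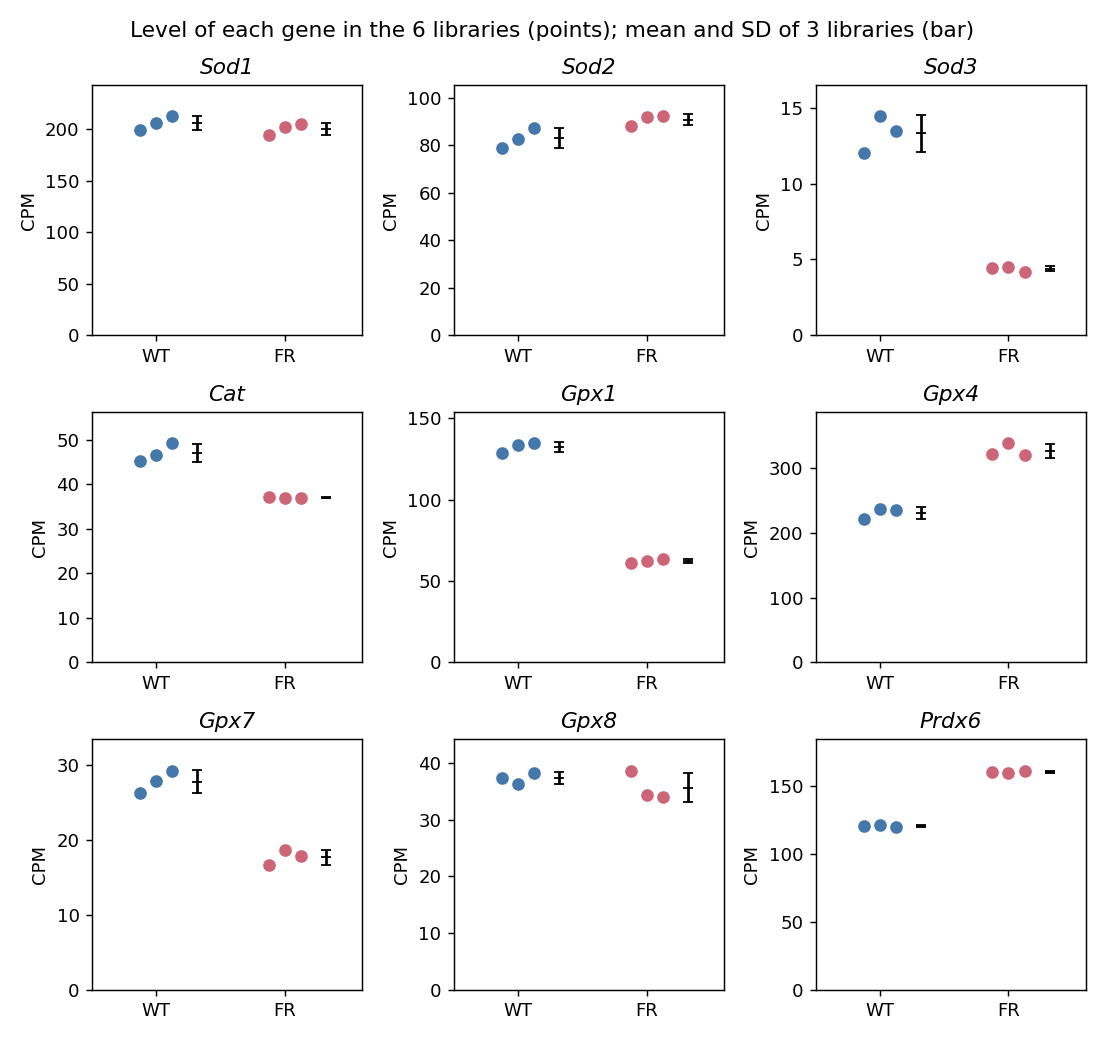
Level in CPM (vertical axes, from 0) of the 9 tested genes in the 3 WT (blue) and 3 FR (red) libraries, one point per library, with the mean and SD of each group in black. The groups do not overlap for Sod2, Sod3, Cat, Gpx1, Gpx4, Gpx7 and Prdx6, and they overlap for Sod1 and Gpx8.

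Among the superoxide dismutases, the extracellular enzyme was the one whose transcript fell. Sod3 (ENSMUSG00000072941) was at 12.0, 14.4 and 13.5 CPM in WT and at 4.47, 4.48 and 4.20 CPM in FR. Every FR library was far below every WT library, and Sod3 had the largest fold change of the 9 genes, a 3.03-fold fall (log2 fold change −1.60 ± 0.11 SE, n = 3 per group; edgeR adjusted p = 2.47e-13). It was also the least abundant of the 9, with 86 to 112 expected counts per library in FR and 328 to 372 in WT. Sod2 (ENSMUSG00000006818), the mitochondrial enzyme, was at 78.9, 82.4 and 87.4 CPM in WT and at 88.2, 91.8 and 92.2 CPM in FR. The highest WT library lay just below the lowest FR library, and the rise was 1.10-fold (log2 fold change 0.13 ± 0.04 SE, n = 3 per group; edgeR adjusted p = 0.00338). This call rests on a small difference: without WT replicate 1 the log2 fold change was 0.083 and the adjusted p 0.0772 (range over 17 alternatives 0.000775 to 0.0772).

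Sod1 (ENSMUSG00000022982), the cytosolic enzyme, was at 199, 206 and 212 CPM in WT and at 194, 202 and 205 CPM in FR. The groups overlapped, and the test did not pass (log2 fold change −0.038 ± 0.030 SE, 95% interval −0.10 to 0.025, n = 3 per group; edgeR adjusted p = 0.276). The interval leaves room for a fall of up to 0.10 on the log2 scale. Within each library, and per length of the genes, Sod1 exceeded Sod2 by 22.2 to 23.0 times in WT and by 20.1 to 20.3 times in FR. This ratio does not depend on scaling between libraries, and its groups did not overlap (exact permutation test, two-sided p = 0.1, the smallest that 3 against 3 libraries can give). Its size depends on the deposited gene lengths, 641 bases for Sod1 and 5861 for Sod2.

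Catalase fell. Cat (ENSMUSG00000027187) was at 45.2, 46.5 and 49.2 CPM in WT and at 37.1, 37.0 and 36.9 CPM in FR. The 3 FR libraries lay close together and below each WT library, a 1.27-fold fall (log2 fold change −0.34 ± 0.05 SE, n = 3 per group; edgeR adjusted p = 2.93e-07).

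The glutathione peroxidases moved in opposite directions. Gpx1 (ENSMUSG00000063856), the abundant cytosolic and mitochondrial enzyme that reduces hydrogen peroxide, was at 129, 134 and 135 CPM in WT and at 61.0, 62.4 and 63.8 CPM in FR. Each FR library had less than every WT library by a wide margin, a 2.12-fold fall (log2 fold change −1.08 ± 0.04 SE, n = 3 per group; edgeR adjusted p = 4.13e-21). Gpx4 (ENSMUSG00000075706), which reduces lipid hydroperoxides in membranes and guards against ferroptosis, was at 221, 237 and 236 CPM in WT and at 321, 339 and 320 CPM in FR. All FR libraries were above all WT libraries, a 1.41-fold rise (log2 fold change 0.50 ± 0.03 SE, n = 3 per group; edgeR adjusted p = 4.41e-14). Reads of Gpx4 can also match its pseudogenes, but the listed pseudogenes Gpx4-ps1 and Gpx4-ps2 held only 0.0958% to 0.254% of the counts of the 3 loci. Gpx1 and Gpx4 both carry the TGA codon shown above.

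Of the pair with cysteine, Gpx7 fell and Gpx8 did not pass. Gpx7 (ENSMUSG00000028597), an endoplasmic reticulum peroxidase that passes oxidising equivalents to protein disulfide isomerase, was at 26.2, 27.8 and 29.2 CPM in WT and at 16.6, 18.6 and 17.8 CPM in FR. The groups were well apart, with a 1.57-fold fall (log2 fold change −0.65 ± 0.07 SE, n = 3 per group; edgeR adjusted p = 9.41e-10). Gpx8 (ENSMUSG00000021760), a membrane-bound relative in the same compartment, was at 37.4, 36.3 and 38.3 CPM in WT and at 38.7, 34.3 and 34.1 CPM in FR. FR replicate 1 was the highest of the 6 libraries and the other two FR libraries were the lowest (log2 fold change −0.070 ± 0.054 SE, 95% interval −0.18 to 0.040, n = 3 per group; edgeR adjusted p = 0.251). Without FR replicate 1 Gpx8 passed as lower, at a log2 fold change of −0.14 and an adjusted p of 0.0296 (range over 17 alternatives 0.0296 to 0.545).

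Gpx3 (ENSMUSG00000018339), the secreted plasma enzyme, was not detectable beyond single counts. Each WT library had 1 count, and the FR libraries had 1, 0 and 1, all under the 3 counts that a count of 0 allows, so no fold change is given. The other glutathione peroxidase genes, Gpx2, Gpx5 and Gpx6, were as low, with at most 3 counts in any library, and were not tested.

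Prdx6 (ENSMUSG00000026701), a peroxiredoxin of the cytosol that reduces phospholipid hydroperoxides with glutathione, rose. It was at 121, 122 and 120 CPM in WT and at 161, 160 and 162 CPM in FR. Replicates were close to each other and the groups far apart, a 1.33-fold rise (log2 fold change 0.41 ± 0.03 SE, n = 3 per group; edgeR adjusted p = 5.10e-13). Gpx4 and Prdx6 were the genes of the 9 with the largest rises. Prdx6b, a near relative of Prdx6, had at most 1 count in any library.

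**Figure D2:**
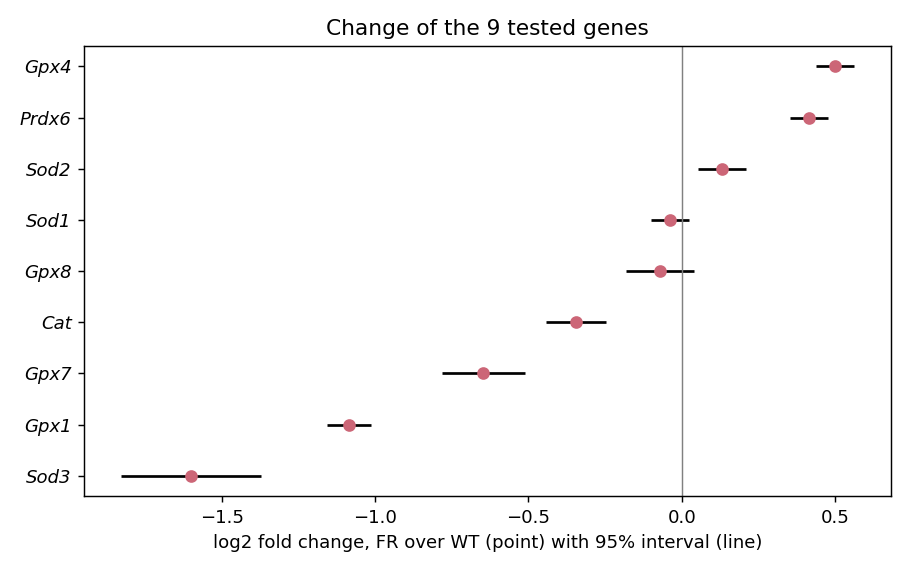
Log2 fold change of FR over WT (horizontal axis) for the 9 tested genes, ordered by size, with the 95% interval of the edgeR fit as a line. The intervals of Sod1 and Gpx8 include 0; Sod3 lies lowest at −1.60 and Gpx4 highest at 0.50.

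CPM of the groups did not overlap for 7 of the 9 genes (77.8%), and for 72.4% of all tested genes. GENCODE M21 has no exon of another gene on either strand over an exon of the 10 genes.

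To compare levels between genes, counts were divided by gene length (CPM per kilobase). In WT the order from high to low was Sod1 (321 ± 10.6 CPM per kilobase), Gpx4 (232 ± 8.86), Gpx1 (123 ± 2.99), Prdx6 (50.6 ± 0.350), Gpx8 (35.9 ± 0.973), Gpx7 (21.5 ± 1.16), Cat (18.0 ± 0.781), Sod2 (14.1 ± 0.732) and Sod3 (3.56 ± 0.325; SD, n = 3). No neighbours in this order overlapped between libraries. In FR Gpx4 came first at 328 ± 10.4 CPM per kilobase and Sod1 second at 312 ± 8.71 (SD, n = 3), with the lowest Gpx4 library at 322 and the highest Sod1 library at 320. Gpx1 dropped behind Prdx6, with 58.2 ± 1.30 against 67.4 ± 0.361 CPM per kilobase. Sod2 moved ahead of Cat and Gpx7, which overlapped each other at 14.2 ± 0.0421 and 13.7 ± 0.766 CPM per kilobase and were the 1 pair of neighbours in FR not separated by their libraries. Sod3 stayed last of the 9 at 1.17 ± 0.0414 CPM per kilobase (SD, n = 3). The deposited gene length need not be that of the transcripts these cells make, so the order depends on it.

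**Figure D3:**
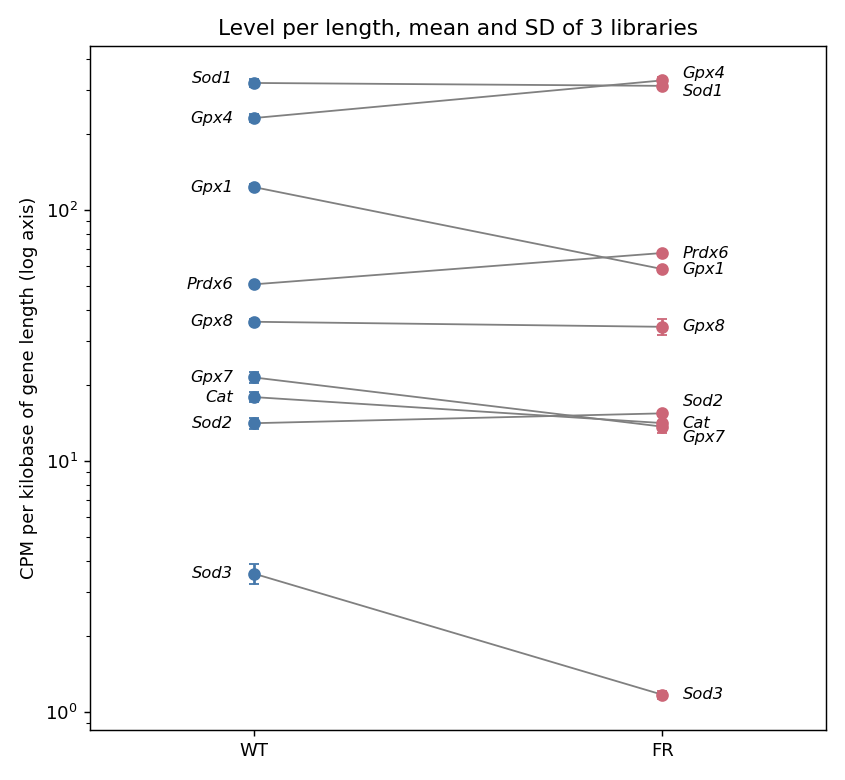
Level per gene length (vertical log axis, CPM per kilobase) of the 9 tested genes in WT and FR, mean with SD of 3 libraries; lines join the same gene. Gpx4 passes Sod1, Prdx6 passes Gpx1, and Sod3 is lowest in both groups.

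The make-up of the glutathione peroxidase transcripts shifted from Gpx1 to Gpx4. Of the summed level per length, Gpx4 held 55.8%, 56.8% and 56.1% in the WT libraries and 75.1%, 76.3% and 75.2% in the FR libraries. Gpx1 held 30.1%, 29.7% and 29.8% in WT and 13.2%, 13.1% and 13.9% in FR. All FR libraries thus had a larger Gpx4 share and a smaller Gpx1 share than any WT library. Gpx7 went from 5.21% ± 0.145 to 3.15% ± 0.135 and Gpx8 from 8.68% ± 0.354 to 7.89% ± 0.658 (SD, n = 3 per group), the latter with overlapping groups.

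Within a library Gpx4 exceeded Gpx1 by 1.85 to 1.91 times in WT and by 5.41 to 5.85 times in FR (exact permutation test, two-sided p = 0.1, the smallest possible; both ratios tested had this p, so adjustment over the 2 leaves it). The sum of the 5 genes was 413 ± 12.8 CPM per kilobase in WT (399 to 422) and 434 ± 9.92 in FR (428 to 446), a ratio of means of 1.05. The sum of the 3 superoxide dismutases was 338 ± 11.6 in WT and 329 ± 9.05 in FR (SD, n = 3 per group), with overlapping groups. Of that sum Sod1 held 94.8% ± 0.109 in WT and 94.9% ± 0.0488 in FR, while Sod3 went from 1.05% ± 0.0806 to 0.357% ± 0.0206.

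**Figure D4:**
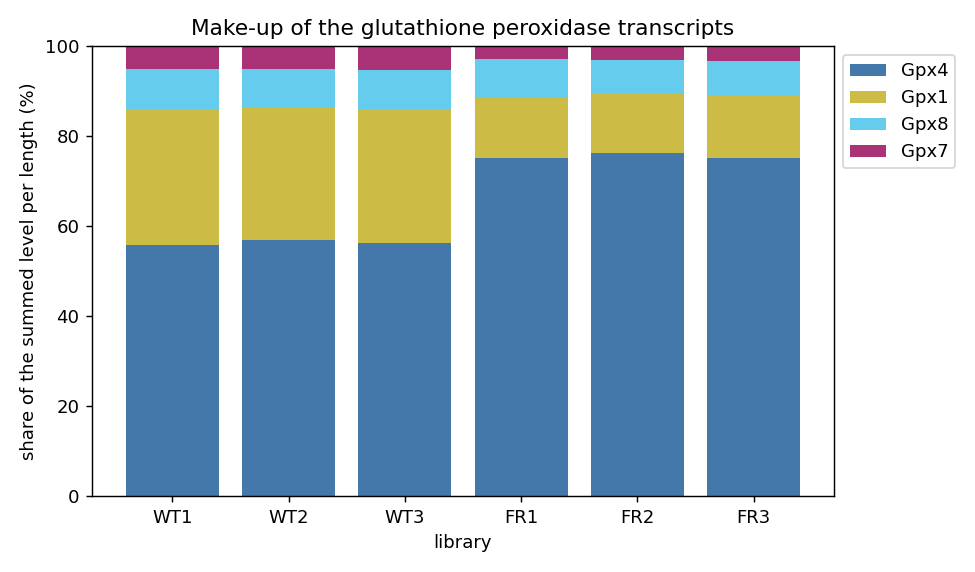
Share of each gene in the summed level per length of the glutathione peroxidases (vertical axis, percent, from 0 to 100) in each library; Gpx3, at single counts, is too small to draw. The Gpx4 share is 55.8% to 56.8% in the WT libraries and 75.1% to 76.3% in the FR libraries.

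Genes that supply or partner these enzymes were read from the same fit in 11 lists of 120 genes, of which 99 could be tested. Of those, 35 rose (35.4%; 34.6% of all genes) and 43 fell (43.4%; 35.5% of all genes). The median log2 fold change was −0.058, against 0.0029 for all tested genes. The counts of each list below are to be read beside these shares of all genes, and no list was tested as a set.

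All 5 other peroxiredoxin genes were called, 1 higher and 4 lower (median log2 fold change −0.25), where 70.1% of all tested genes were called. Prdx1, the abundant cytosolic member, rose from 561 ± 4.44 to 764 ± 13.5 CPM (SD, n = 3 per group). Prdx4, the member of the endoplasmic reticulum, fell from 122 ± 0.510 to 57.9 ± 2.75 CPM, a log2 fold change of −1.07 ± 0.04 SE, close to that of Gpx1. Of 17 genes listed for regeneration of thioredoxin, glutathione and NADPH, 10 rose and 2 fell (median 0.12). The rises include that of Txnip, which encodes an inhibitor of thioredoxin, from 64.4 ± 4.24 to 105 ± 3.80 CPM. Txnrd1, the cytosolic thioredoxin reductase and itself a selenoprotein, rose from 270 ± 4.91 to 445 ± 5.10 CPM. Idh2, a mitochondrial source of NADPH, rose from 204 ± 0.629 to 267 ± 5.98 CPM, while the cytosolic Idh1 fell from 90.8 ± 2.49 to 66.9 ± 3.59 CPM (SD, n = 3 per group).

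Of 11 selenoprotein synthesis genes, 4 were higher and 5 lower (median log2 fold change −0.044). Sephs2, which makes the selenium donor for selenocysteine, rose from 68.1 ± 1.89 to 130 ± 2.02 CPM. Secisbp2l, a relative of the protein that binds the selenocysteine insertion element, fell from 99.9 ± 2.23 to 48.5 ± 1.59 CPM (SD, n = 3 per group). Of 11 other selenoprotein genes 7 fell and 1 rose (median −0.46). Selenow fell from 93.8 ± 6.71 to 40.9 ± 0.636 CPM and Selenof, of the endoplasmic reticulum, from 347 ± 13.3 to 236 ± 3.18 CPM, while Selenoi rose from 82.1 ± 1.92 to 96.3 ± 1.99 CPM (SD, n = 3 per group). The other lists hold 5 more selenoprotein genes that were tested, named after their values were seen. The log2 fold change was 0.72 for Txnrd1, 0.76 for Txnrd2, 0.93 for Sephs2 and 0.56 for Selenop, which rose. For Txnrd3, which did not pass, it was 0.032. The listed selenoprotein genes thus changed in both directions, as did all genes tested, of which 35.5% were lower and 34.6% higher.

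For copper and manganese supply of the superoxide dismutases 3 of 9 tested genes were higher and 5 lower (median log2 fold change −0.12). Slc39a14, a transporter of manganese and zinc, fell from 61.0 ± 1.92 to 34.8 ± 1.36 CPM, whereas its relative Slc39a8 rose from 7.34 ± 0.452 to 11.3 ± 0.245 CPM. Slc31a2, related to the copper importer, fell from 14.9 ± 0.874 to 5.25 ± 0.570 CPM (SD, n = 3 per group). Of the 8 tested genes for NADPH oxidases, their partner proteins, xanthine oxidase and aldehyde oxidase, 4 rose and 3 fell (median 0.073). The oxidases among them make superoxide or hydrogen peroxide. Xdh, which encodes xanthine dehydrogenase and oxidase, rose from 292 ± 5.71 to 373 ± 7.05 CPM, and Poldip2 from 84.0 ± 0.974 to 112 ± 1.35 CPM. Aox1, an aldehyde oxidase, fell from 6.94 ± 0.241 to 1.73 ± 0.386 CPM (SD, n = 3 per group). The largest fall in this list was that of the NADPH oxidase gene Nox4, from 3.59 ± 0.308 to 0.570 ± 0.143 CPM (SD, n = 3 per group).

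Of 10 genes for oxidative folding in the endoplasmic reticulum, where Gpx7, Gpx8 and Prdx4 act, 3 were higher and 6 lower (median log2 fold change −0.12). P4hb, the protein disulfide isomerase that Gpx7 can oxidise, fell from 966 ± 18.3 to 652 ± 8.08 CPM, and the sulfhydryl oxidase gene Qsox1 from 135 ± 2.10 to 94.5 ± 0.830 CPM. Ero1a, the oxidase whose reaction yields hydrogen peroxide, rose from 135 ± 3.25 to 188 ± 5.02 CPM (SD, n = 3 per group).

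Peroxisome import and assembly genes, which bring catalase to its place, numbered 17, with 5 higher, 6 lower and 6 not past the threshold (median log2 fold change −0.022). Pex19 fell from 58.8 ± 2.28 to 44.1 ± 1.13 CPM and Pex2 from 56.5 ± 2.23 to 42.6 ± 2.42 CPM, while Pex14, a docking protein for import, rose from 25.6 ± 1.51 to 34.5 ± 1.51 CPM (SD, n = 3 per group). Of 4 tested peroxisomal oxidase genes 1 rose and 2 fell (median −0.29). The polyamine oxidase gene Paox rose from 6.22 ± 0.595 to 9.02 ± 1.32 CPM (SD, n = 3 per group).

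In the list on lipid peroxidation and ferroptosis, the setting of Gpx4, 3 of 7 tested genes were higher and 3 lower (median log2 fold change −0.071). Lpcat3, which puts polyunsaturated fatty acids into phospholipids, fell from 52.9 ± 1.03 to 31.5 ± 0.967 CPM, and the cyclooxygenase gene Ptgs1 from 68.0 ± 1.08 to 40.3 ± 2.22 CPM. Pla2g6, a phospholipase, rose from 11.2 ± 0.454 to 16.6 ± 1.13 CPM (SD, n = 3 per group). All supporting genes named as rising or falling had an edgeR adjusted p of 0.000349 or less. Txnrd3, named above as not passing, had an edgeR adjusted p of 0.731.

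**Figure D5:**
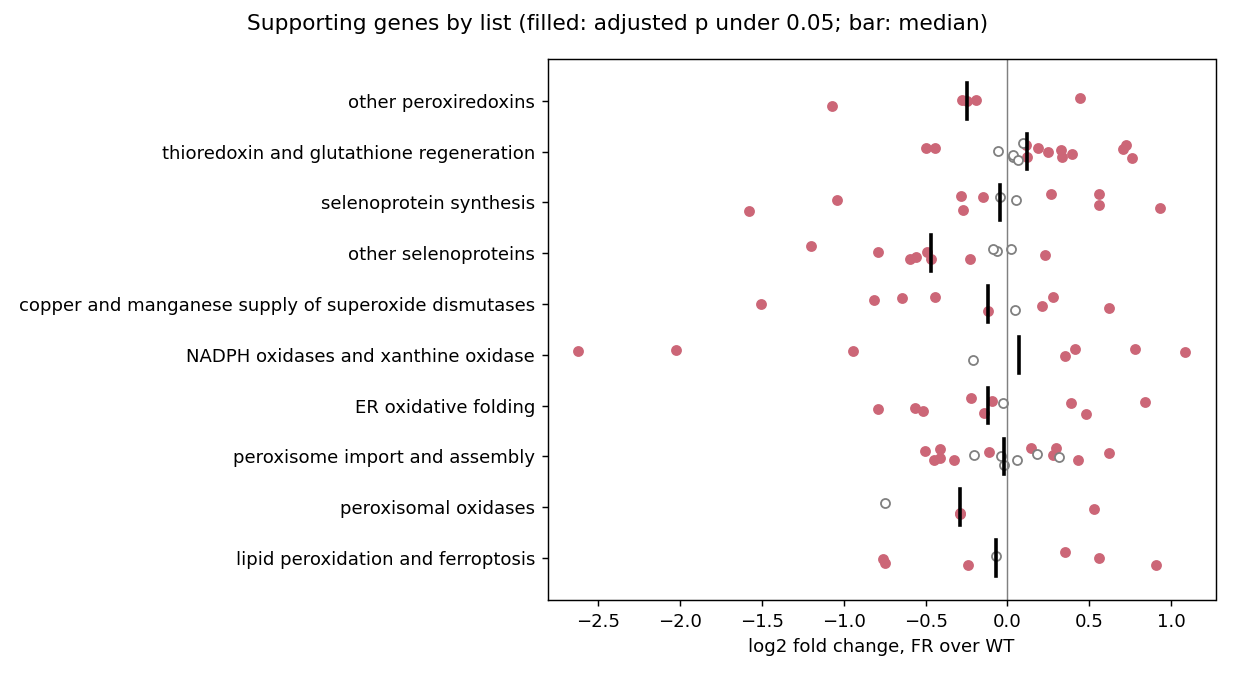
Log2 fold change of FR over WT (horizontal axis) of the 99 tested supporting genes by list, one point per gene, filled where the edgeR adjusted p was under 0.05, with the list's median as a bar. Points fall on both sides of 0 in each of the 10 lists with tested genes; the bar lies highest for thioredoxin and glutathione regeneration (0.12) and lowest for other selenoproteins (−0.46).

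The genes whose profile over the 6 libraries was most like that of Gpx1, by the Euclidean distance of centred log2 CPM, were Anxa2 (distance 0.0350), Mbnl1 (0.0472) and Hmgn2 (0.0487). For Sod3 they were Mid1 (0.152), Nbdy (0.164) and Nsg1 (0.168). These distances mostly reflect the fold change between the groups, since the 6 libraries form only 2 of them.

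RefSeq promoter windows (GRCm38.p6, 250 bases before to 50 after a start) were at hand for 8 of the 10 genes, 11 windows in all. The core of the antioxidant response element, to which the stress factor Nrf2 binds, was searched as TGACNNNGC on both strands, letters that can overlap an AP-1 site. It was found in the window of Sod1 and in none of the others, and 12.4% of all 32851 windows of this length hold it. A match is a description of the letters, and nothing about the factor is drawn from it.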

How the data were processed

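Total RNA of the 6 samples was selected for poly(A) and sequenced as paired ends, per the labels' protocols. The authors' deposited table gives expected counts for each gene without depth scaling, a gene length in bases and group means (not used). Per the submitters' processing notes, fastp, HISAT and RSEM served with the build GRCm39; versions, settings and annotation release are not given in the sources used here. RSEM splits reads between similar genes by estimation. Sequences and annotation used here are of GRCm38, and the table gives no positions.

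Expected counts were rounded, low genes were removed by edgeR's filterByExpr (edgeR 4.0.16, R 4.3.3; 14889 genes kept, with 521 of the 733 loci that have no gene name), and TMM factors scaled the libraries. The test of FR against WT was the robust quasi-likelihood F-test, with Benjamini-Hochberg adjustment over every tested gene and a threshold of 0.05. CPM and CPM per kilobase use unrounded counts. Errors are the SD of 3 libraries or the SE of the model. The members, lists and tests were chosen with earlier results of these data known. Named are all 10 members, and from each list the 2 genes of smallest adjusted p plus, where both moved alike, the best called gene of the other direction. Of the genes this rule takes, 1 is not reported here. Likeness used log2 of CPM plus 0.5 among genes with a mean of at least 5 CPM, for the member of smallest adjusted p and the member of largest change.

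The test was tried on simulated counts (14685 genes, 50 changed per size). It called 54% of 1.2-fold, 80% of 1.5-fold, 88% of 2-fold and 96% of 4-fold changes, and 4 of 14489 unchanged genes. The simulation changed few genes and gave all genes the same dispersion, whereas 70.1% of genes were called in the data. These shares therefore need not hold for the data. Replicates differed from each other by 2.34 to 3.37 times sampling noise (chi-square over its degrees of freedom), so no library is a copy. Alternatives were other scalings and filters, no robust weighting, a replicate block, DESeq2 1.42.0, limma-voom (limma 3.58.1), leaving out the 10 most abundant genes or 1 library, and, added after seeing the data, Gpx4 with its pseudogene counts and no loci that lack a gene name. Figures used matplotlib 3.10.9.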

Additional observations from a re-analysis of the deposited data

How the results depend on the processing

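Under the 17 alternatives, 151 of the 153 values of the 9 tested genes kept their direction and their side of the threshold. The exceptions came from leaving out 1 library. Without WT replicate 1 Sod2 no longer passed (log2 fold change 0.083, adjusted p = 0.0772), and over the left-out libraries its log2 fold change ran from 0.083 to 0.17. Without FR replicate 1 Gpx8 passed as lower (−0.14, adjusted p = 0.0296), and over the left-out libraries it ran from −0.14 to −0.043. The cause was not tested. Gpx1 ran from −1.12 to −1.07, Sod3 from −1.68 to −1.55 and Gpx4 from 0.45 to 0.51 over all alternatives. Genes called higher numbered 4635 to 5157 and genes called lower 4883 to 5831, all within 1.5 times the main counts, and scaling moved the median of all genes by less than 0.1 (log2). With the replicate block 5070 genes were higher and 5222 lower, and no call among the 9 genes changed. Same-numbered libraries did not visibly deviate together (correlations −0.00041, −0.018 and −0.037). Libraries of unlike number had correlations of −0.029 to 0.047. This check cannot exclude a shared culture or batch, and the labels do not say that the numbers pair samples. Depth limits Gpx3, at single counts, and widens the interval of Sod3, the least abundant of the 9 tested genes.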
